A study of Homo sapiens with 16 samples.

Results

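The CCN genes encode a small family of secreted matricellular proteins, which sit in the extracellular matrix and act on cells rather than hold the tissue together. All 6 of them, CCN1 to CCN6, were followed by symbol among the 35810 genes of the deposited transcript tables. A gene was tested when enough libraries held about 10 reads of it, which left 16705 genes, and 3 of the 6 CCN genes passed. CCN1, CCN2 and CCN3 were tested, and CCN4, CCN5 and CCN6 are described mainly by their reads.

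RNA was sequenced from 16 libraries of pancreatic progenitors made from SA121, a human embryonic stem cell line whose NGN3-GFP genotype reports the endocrine gene NEUROG3, so every group comes from 1 reporter line. On day 19 the cells received 0.5 µM latrunculin B (LatB), which depolymerises actin, and were harvested after 3 h (n = 3), 6 h (n = 3), 12 h (n = 2) or 24 h (n = 3). The controls were 3 libraries at 0 h, tagged DMSO but placed before treatment by the series text, and 2 libraries after 24 h of DMSO. The labels do not say whether replicates came from separate cultures, so the p-values measure the spread between these libraries, which may be technical.

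The libraries held from 23609727 to 33515398 estimated reads. Of 10 pancreatic progenitor markers, 9 were at 17.1 TPM or more in every library (TPM is a level per transcript length, scaled to the same total in each library, so that genes can be compared), with PDX1 between 109.7 and 173 TPM. The exception was PTF1A, at 0.0533 to 0.927 TPM. A list of 5 hepatic genes summed to between 1568 and 3469 TPM, beside 1908 to 2279 TPM for the progenitor list, although ALB itself stayed at or below 6.63 TPM. Endothelial markers summed to 1.50 to 13.9 TPM, and pluripotency markers to 90.0 to 197 TPM, most of it LIN28A, with NANOG at or below 0.265 TPM. The 2 LatB 12 h libraries were less alike than any other replicate pair (Pearson r of log2 CPM across genes 0.967, against 0.980 to 0.986). In LatB 12 h replicate 2 the 10 stromal markers summed to 470 TPM, against 63.7 to 133 TPM in the other 15 libraries, and 8 of the 10 were at their highest there. The part of the stromal cells in the results was not tested, and in bulk RNA fewer cells of a type and less RNA per cell cannot be told apart.

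CCN proteins are built from an insulin-like growth factor binding protein domain, a von Willebrand factor type C domain, a thrombospondin repeat and a C-terminal cystine knot, which CCN5 lacks. They bind integrins and heparan sulfate proteoglycans and hold growth factors such as BMPs and TGF-beta. CCN1 and CCN2 are immediate targets of YAP, a co-activator that binds DNA through TEAD factors and is held back when actin filaments are lost, and both genes also answer to serum response factor with its actin-sensing partner MRTF.

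The 250 bases before the start of CCN2 are shown because CCN2 is the family member with the highest level and the largest change here. They lie at chr6:131951373-131951622 on the minus strand of GRCh38.p14, as RefSeq gives the start, and are written 5′ to 3′ along the gene. Capitals mark each match to GGAATG, the core of the TEAD motif.

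CCN2: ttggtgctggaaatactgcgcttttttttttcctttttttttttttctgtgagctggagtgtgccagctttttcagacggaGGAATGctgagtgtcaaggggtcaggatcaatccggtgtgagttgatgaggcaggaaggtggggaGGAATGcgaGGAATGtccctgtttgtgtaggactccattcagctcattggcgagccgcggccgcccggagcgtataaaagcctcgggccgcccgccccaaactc

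GGAATG was searched on both strands and occurred 3 times, starting 169, 104 and 95 bases before the gene. At least 1 match stood in 11.9% of the 35116 RefSeq promoter windows of this length, and 3 or more in 0.0826% of them. CAGAC, the SMAD core, occurred once, starting 177 bases before the gene, and stood in 38.0% of the windows. TATAAA, searched on the gene's strand, began 32 bases before the gene and stood in 6.80% of the windows. Neither TGANTCA, the AP-1 motif, nor the CArG box of serum response factor matched in the CCN2 window, and these stood in 6.57% and 1.16% of all windows. The only other member with a window in the table was CCN6, which held 1 GGAATG and no match to the others. A match is a description of letters, and binding was not measured in these libraries.

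CCN2 (ENSG00000118523.6; GRCh38 chromosome 6, 131948176 to 131951372, minus strand) encodes connective tissue growth factor. It stood at 111, 116 and 119 TPM in the control 0 h libraries and at 112 and 124 TPM in the control 24 h libraries. At 3 h of LatB it was 5.96, 6.65 and 5.24 TPM, and at 6 h 2.36, 1.97 and 1.89 TPM. The 2 libraries of 12 h held 1.50 and 2.86 TPM, and the 3 libraries of 24 h held 23.1, 5.46 and 14.8 TPM. Every LatB library lay below every control library, and the lowest values fell at 6 h and 12 h. By mean TPM CCN2 ranked 1188th of the 16705 tested genes in control 0 h, 10142nd at 3 h, 12232nd at 6 h, 12525th at 12 h and 7656th at 24 h.

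CCN1 (ENSG00000142871.18; GRCh38 chromosome 1, 85580761 to 85584589, plus strand) encodes a heparin-binding integrin ligand that is known as an immediate early gene. It stood at 53.8, 56.9 and 56.8 TPM in control 0 h and at 58.3 and 64.2 TPM in control 24 h. LatB libraries held 3.53, 3.74 and 2.68 TPM at 3 h and 2.10, 2.13 and 1.97 TPM at 6 h. They held 3.04 and 6.63 TPM at 12 h, and 27.8, 7.76 and 18.8 TPM at 24 h. As for CCN2, no LatB library reached a control library, and the 6 h libraries were the lowest.

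**Figure D1:**
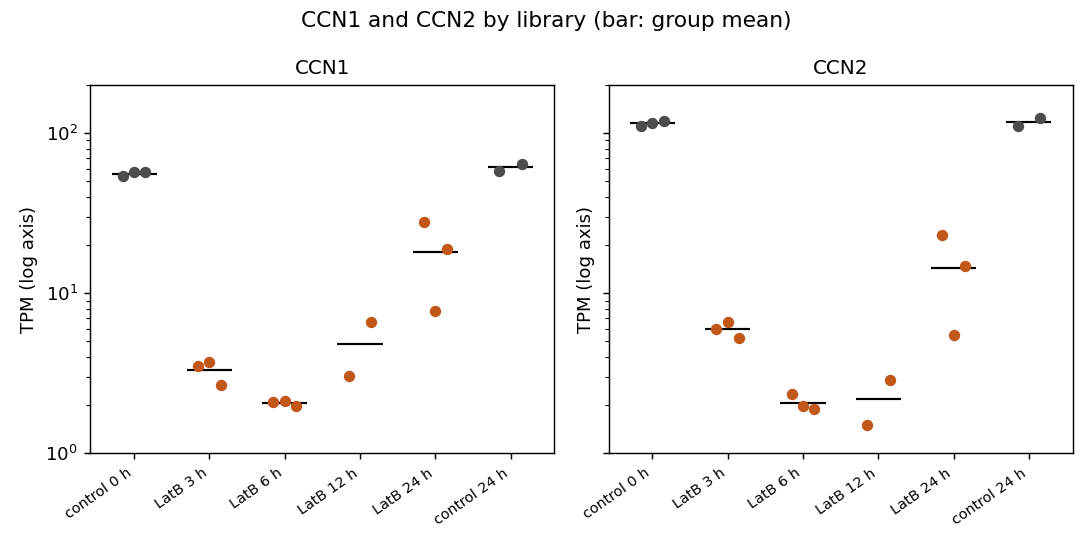
TPM (log axis) of CCN1 (left) and CCN2 (right) in each of the 16 libraries, by group, with the group mean as a bar; controls are grey and LatB libraries orange. CCN1 falls from 53.8 to 64.2 TPM in the controls to 1.97 to 2.13 TPM at 6 h, CCN2 from 111 to 124 TPM to 1.89 to 2.36 TPM, and the 24 h libraries of both genes are higher again and spread widely.

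The first question was how early and how far the family responded. At 3 h CCN1 was lower than in control 0 h in 3 of 3 libraries, with a change of -4.00 on the log2 scale (SE 0.35, edgeR adjusted p 2.78e-06). CCN2 was lower in 3 of 3 libraries too, by -4.19 (SE 0.35, edgeR adjusted p 1.73e-06). So 2 of the 3 tested members were called lower, beside 14.7% of all tested genes, with 16.8% called higher. Without scaling between libraries these shares of all genes were 20.4% and 11.6%. CCN2 was 41st and CCN1 45th from the lowest log2 fold change among the 16705 genes. CCN3 had a value of -0.73 (SE 0.56) and was not called (edgeR adjusted p 0.361).

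At 6 h the same 2 members were called lower against control 0 h, where 20.4% of all tested genes were, with 22.9% higher (26.8% and 16.2% without scaling). CCN2 fell by 5.70 on the log2 scale (SE 0.40, edgeR adjusted p 2.74e-07), so it was 51.8-fold lower. CCN1 fell by 4.64 (SE 0.37, edgeR adjusted p 8.67e-07), which is 24.9-fold. Between 3 h and 6 h CCN2 fell again, by 1.50 on the log2 scale (SE 0.42, edgeR adjusted p 0.0216), 1 of 3 tested members beside 10.3% of all genes lower and 11.9% higher. This call was lost when LatB 3 h replicate 2 or any 1 of the 3 LatB 6 h libraries was left out, with a change of -1.59 to -1.42 and adjusted p of 0.0515 to 0.0690. For CCN1 the step from 3 h to 6 h was -0.64 (SE 0.41) and was not called (edgeR adjusted p 0.299).

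At 12 h the change against control 0 h was -5.73 for CCN2 on the log2 scale (SE 0.47, edgeR adjusted p 1.88e-06) and -3.58 for CCN1 (SE 0.41, edgeR adjusted p 2.29e-05). These were 2 of 3 members called lower, beside 16.8% of all genes lower and 19.1% higher. From 6 h to 12 h no member was called, beside 13.9% of all genes called higher and 15.1% lower. CCN1 differed by 1.06 (SE 0.44, edgeR adjusted p 0.0905) and CCN2 by -0.03 (SE 0.55, edgeR adjusted p 0.977), while DESeq2 called CCN1 higher over this step (1.05, adjusted p 0.0458). At an unadjusted p under 0.05 edgeR would have had 1 of the 3 members there.

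At 24 h, set against the DMSO libraries of the same age, all 3 tested members were called lower, beside 18.8% of all genes lower and 21.9% higher. On the log2 scale CCN2 changed by -3.02 (SE 0.34, edgeR adjusted p 2.26e-05) and CCN1 by -1.76 (SE 0.33, edgeR adjusted p 0.000865), 8.10-fold and 3.39-fold lower. As a share of the control 24 h mean TPM, CCN1 was at 45.4%, 12.7% and 30.6% in the 3 libraries and CCN2 at 19.6%, 4.64% and 12.5%. Replicate 1 was the highest and replicate 2 the lowest for both genes.

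CCN1 and CCN2 were higher at 24 h than at 12 h. CCN2 rose by 2.71 (SE 0.46, edgeR adjusted p 0.00419) and CCN1 by 1.92 on the log2 scale (SE 0.39, edgeR adjusted p 0.00886), 2 of 3 members beside 5.96% of all genes called higher and 5.72% lower. With these 5 libraries alone in the fit neither gene passed (adjusted p 0.219 for CCN2 and 0.250 for CCN1), and edgeR then called 0 genes in all, with 2542 of 15955 genes at an unadjusted p under 0.05. With the 3 h effect taken against control 0 h, the difference between the LatB effects at 24 h and 3 h was tested as well. It was 2.24 for CCN1 (SE 0.48, edgeR adjusted p 0.00386), 1 of 3 members and over all genes 14.6% were called above 0 and 13.4% below it. For CCN2 it was 1.18 (SE 0.47) and was not called (edgeR adjusted p 0.0819), but without LatB 24 h replicate 2 it was 1.57 (edgeR adjusted p 0.000479).

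Among the 24 h libraries 6 of the 10 stromal markers had the order of CCN1 and CCN2 (replicate 1 highest, replicate 2 lowest), and 4 (COL1A1, COL1A2, DCN and THY1) did not. Of the former, COL3A1, a fibrillar collagen, stood at 43.3, 7.97 and 19.8 TPM in replicates 1, 2 and 3, and LUM, a collagen-binding proteoglycan, at 27.7, 5.41 and 13.04 TPM. PDGFRA and PDGFRB, also among the 6, were nearly equal in replicates 2 and 3 (3.49 and 3.51 TPM, and 0.5725 and 0.5729 TPM). Of the other 4, COL1A2, a chain of type I collagen, was highest in replicate 2 (14.9, 36.8 and 16.3 TPM), and DCN, a small proteoglycan, was lowest in replicate 3 (1.86, 0.337 and 0.136 TPM). The summed stromal list was at 113, 63.7 and 63.8 TPM, so replicates 2 and 3 hardly differed in it. Endocrine markers ran the other way, with summed levels of 137, 494 and 433 TPM. At 3 h and 6 h, where CCN1 and CCN2 were called lower, the stromal sums of 80.8 to 133 TPM overlapped those of control 0 h (67.6 to 112 TPM). The markers moved unequally, with a list median of -0.65 on the log2 scale at 3 h and -0.23 at 6 h. At 3 h 1 of the 10 was called, COL1A2, which was higher (1.42, SE 0.46, edgeR adjusted p 0.0317). Of all genes, 16.8% were called higher and 14.7% lower at 3 h. At 6 h 1 of the 10 was called lower and 0 higher, where 20.4% and 22.9% of all genes were. COL3A1 held 17.2, 11.7 and 7.19 TPM at 3 h against 30.5, 14.8 and 18.8 TPM in control 0 h, and COL1A2 held 39.5, 49.7 and 102 TPM against 33.1, 18.8 and 26.7 TPM. The part of the cell mixture in these values was not tested.

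**Figure D2:**
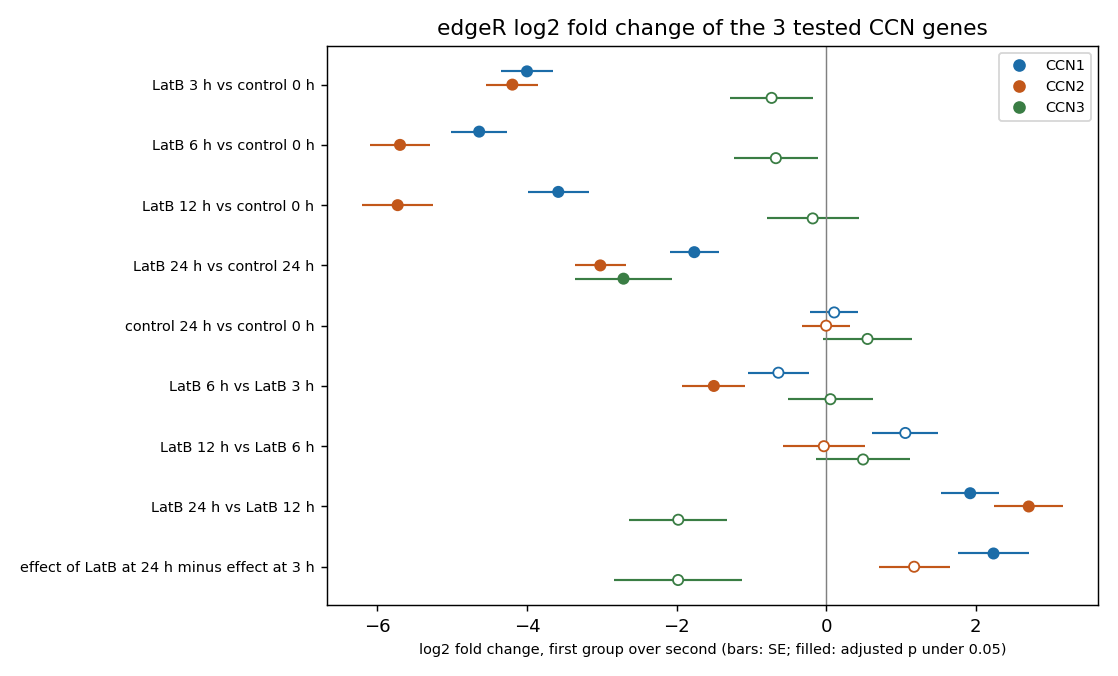
Log2 fold changes of CCN1, CCN2 and CCN3 in the 9 comparisons (x axis, first group over second; the last row is a difference of 2 such changes), with SE bars and filled points for an edgeR adjusted p under 0.05. CCN1 and CCN2 lie between -5.73 and -1.76 in all 4 comparisons with a control, and CCN3 is filled at 24 h only (-2.71).

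No tested member was called between the control libraries of 0 h and 24 h, by edgeR or by DESeq2, and 0 had an unadjusted p under 0.05. CCN1 differed by 0.11 (SE 0.32, edgeR adjusted p 0.982), CCN2 by -0.00 (SE 0.32, edgeR adjusted p 1) and CCN3 by 0.55 (SE 0.60, edgeR adjusted p 0.926), and 0.251% of all genes were called between these controls. Ordered by mean TPM, CCN1 ran from control 24 h (61.3 TPM) and control 0 h (55.9 TPM) through LatB 24 h (18.1 TPM) and 12 h (4.84 TPM) to 3 h (3.32 TPM) and 6 h (2.07 TPM). Of these neighbours, the 2 controls, LatB 12 h and 3 h (edgeR adjusted p 0.456), and 3 h and 6 h did not differ beyond their spread. CCN2 ran from control 24 h (118 TPM) and control 0 h (115 TPM) through LatB 24 h (14.4 TPM) and 3 h (5.95 TPM) to 12 h (2.18 TPM) and 6 h (2.07 TPM). Among its neighbours, the 2 controls and LatB 12 h with 6 h were the pairs that did not differ beyond their spread, and LatB 24 h differed from 3 h by 1.17 (SE 0.34, edgeR adjusted p 0.0129). For CCN3, in the order control 24 h, control 0 h, LatB 12 h, 6 h, 3 h and 24 h, no pair of neighbours passed the test (lowest edgeR adjusted p 0.0762, LatB 3 h against 24 h).

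The balance between the 2 genes shifted with time. CCN2 TPM divided by CCN1 TPM was 2.04 to 2.09 in control 0 h, 1.91 to 1.93 in control 24 h and 1.69 to 1.95 in LatB 3 h. It was 0.922 to 1.12 at 6 h, 0.431 to 0.494 at 12 h and 0.703 to 0.829 at 24 h. CCN2 was thus the more abundant transcript in all control and 3 h libraries, and CCN1 in all 12 h and 24 h libraries. This ratio is given as a description, with no test.

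**Figure D3:**
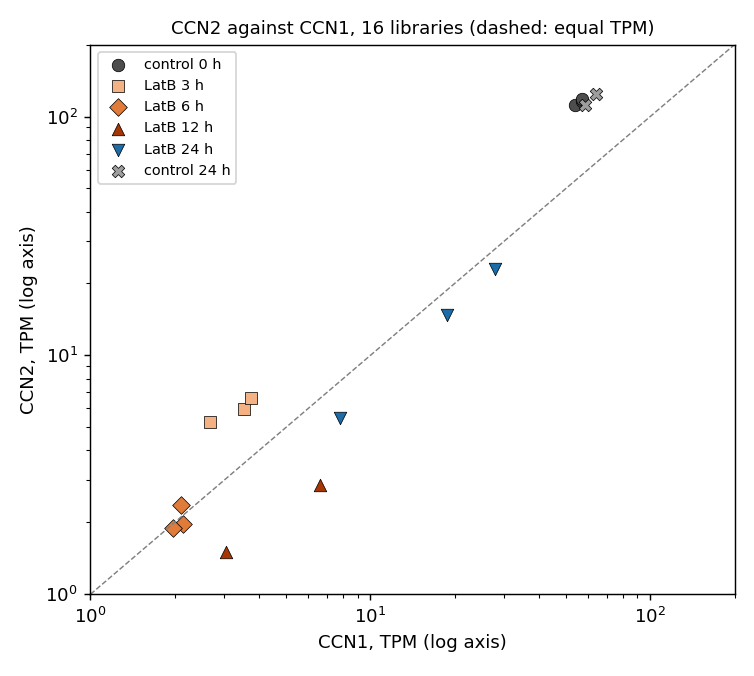
CCN2 TPM against CCN1 TPM in the 16 libraries (both axes log), with a marker for each group and a dashed line where the levels are equal. Controls and LatB 3 h lie above the line (CCN2 over CCN1 1.69 to 2.09), LatB 6 h on it (0.922 to 1.12), and LatB 12 h and 24 h below it (0.431 to 0.829).

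CCN3 (ENSG00000136999.5; GRCh38 chromosome 8, 119416446 to 119424434, plus strand), known to restrain cell growth in several tissues, was a low transcript with 9 to 100 reads per library. It stood at 1.06, 1.48 and 1.65 TPM in control 0 h and at 1.99 and 2.14 TPM in control 24 h. The LatB libraries held 1.04, 0.935 and 0.412 TPM at 3 h, 1.23, 0.745 and 0.497 TPM at 6 h, and 0.472, 0.269 and 0.421 TPM at 24 h. The early LatB groups overlapped in range with control 0 h at 6 h but not at 3 h, and the 24 h group lay wholly below control 24 h. The log2 fold change at 24 h was -2.71 (SE 0.64, edgeR adjusted p 0.00449), lower in 3 of 3 libraries. It was called under all 17 alternatives, with sizes from -3.09 to -1.15, the smallest on the log2(TPM + 1) scale, which compresses low levels. At 6 h it was -0.67 (SE 0.56, edgeR adjusted p 0.365). The difference between its effects at 24 h and 3 h was -1.98 (SE 0.85) and was not called (edgeR adjusted p 0.102), but a fit limited to the 4 groups involved gave -1.97 (edgeR adjusted p 0.0178), the 1 of 22 alternatives that called it.

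At 12 h the 2 libraries were at opposite ends for CCN3, with 0.253 TPM in replicate 1 and 2.32 TPM in replicate 2, the highest level of all 16 libraries. The log2 fold change against control 0 h was -0.18 (SE 0.62, edgeR adjusted p 0.851). It became 0.62 (adjusted p 0.358) without replicate 1, and -2.38 (adjusted p 0.0178) without replicate 2, with the lone library assumed to vary like the other groups. Replicate 2 is the library with the high stromal sum, where COL3A1 stood at 207 TPM against 27.3 TPM in replicate 1, and CCN1, CCN2 and CCN4 were also higher in it than in replicate 1. Without replicate 2 the log2 changes at 12 h against control 0 h were -4.10 for CCN1 and -6.18 for CCN2.

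Between successive times CCN3 was not called. It differed by 0.06 from 3 h to 6 h (SE 0.57, edgeR adjusted p 0.963), by 0.49 from 6 h to 12 h (SE 0.62, edgeR adjusted p 0.601) and by -1.98 from 12 h to 24 h (SE 0.66, edgeR adjusted p 0.0683), the last opposite in sign to CCN1 and CCN2. That last step was called in 2 of 16 alternatives, by DESeq2 (-1.98, adjusted p 0.0315) and without LatB 12 h replicate 1 (-2.78, edgeR adjusted p 0.00211), and without LatB 12 h replicate 2 it was 0.22 (edgeR adjusted p 0.889).

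**Figure D4:**
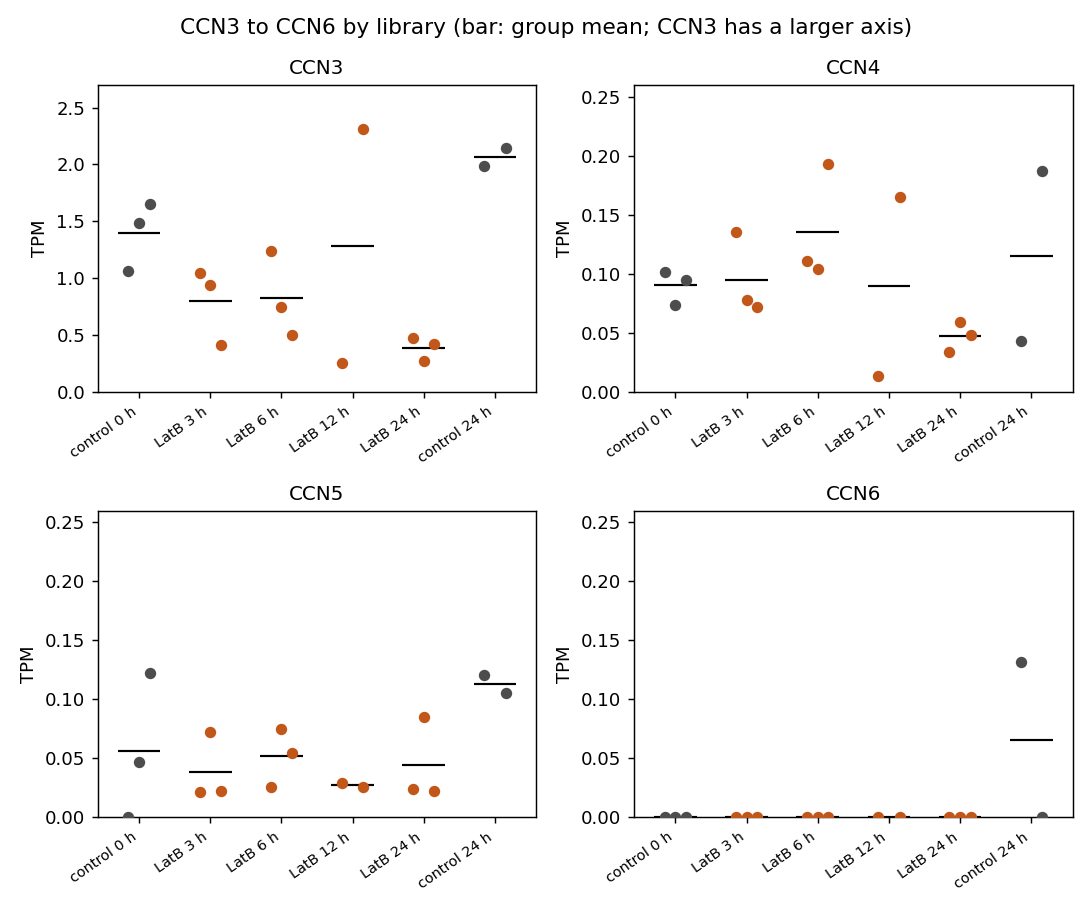
TPM of CCN3, CCN4, CCN5 and CCN6 in each of the 16 libraries, by group, with the group mean as a bar; the CCN3 axis is longer than the other 3. CCN3 is at 0.269 to 0.472 TPM in LatB 24 h against 1.99 and 2.14 TPM in control 24 h, while CCN4 stays at or below 0.193 TPM, CCN5 at or below 0.122 TPM, and CCN6 is above 0 in 1 library.

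The other 3 members were at the edge of detection, and a count of 3 reads corresponded to 0.0922 to 0.131 CPM (counts scaled to library size) in these libraries. CCN4 (ENSG00000104415.14; chromosome 8, 133191039 to 133231690), named as a WNT-induced gene, had 1 to 9 reads in each of the 16 libraries. CCN5 (ENSG00000064205.11; chromosome 20, 44714844 to 44728509) had up to 5.02 estimated reads and none in 1 library. CCN6 (ENSG00000112761.22; chromosome 6, 112054075 to 112069686) had 1.66 estimated reads in 1 control 24 h library and 0 in the other 15. These 3 genes were tested only in the fit without a filter on low counts. There CCN4, with 8, 7 and 7 reads in control 0 h and 2, 1 and 2 reads at 6 h, had a log2 change of -2.05 (SE 0.74). It was not called (edgeR unadjusted p 0.0127, adjusted p 0.0519). In TPM the order was the reverse, with 0.110, 0.104 and 0.193 at 6 h against 0.102, 0.0736 and 0.0945 in control 0 h. Reads and TPM thus gave no common direction for CCN4 on so few reads. No comparison of CCN5 or CCN6 had an edgeR adjusted p under 0.398, and differences in them were not detectable at this depth. CCN1 and CCN2 together made up 76.5% to 99.3% of the summed family TPM of a library.

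Each member was also read by transcript. CCN2 has 1 transcript in the tables, and for CCN1 the coding transcript CCN1-201 held 98.6% ± 0.545 (SD, n = 5) of the gene's TPM in controls and 98.6% ± 1.94 (SD, n = 11) in LatB libraries. The difference of these shares did not pass a two-sided exact permutation test (p = 0.939, adjusted over 3 members to 1). CCN3-201 was the sole CCN3 transcript with reads except in LatB 24 h replicate 3, where 2.29 reads fell to a retained-intron transcript and made 0.271 of the 0.421 TPM there. With only 1 library that differed, the exact permutation test (p = 1) could not have given a small p, and nothing is drawn from it. For CCN4 the share of CCN4-202 ran from 0% to 100% in the LatB libraries on very few reads (exact permutation p = 0.231, adjusted p 0.692). For CCN5, 34.03 reads over all libraries fell to CCN5-206 and 1 read to CCN5-205, both annotated without a defined coding sequence.

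The factors that act at CCN genes had log2 fold changes between -1.35 and 1.14 against the controls. Of 15 listed transcription factors, 4 were called higher and 5 lower at 3 h, 3 and 9 at 12 h, and 2 and 6 at 24 h. Of all genes, 16.8% were called higher and 14.7% lower at 3 h, 19.1% and 16.8% at 12 h, and 21.9% and 18.8% at 24 h. The list medians were -0.11, -0.30 and -0.07 on the log2 scale at these times, beside 0.00, 0.01 and 0.01 over all genes. TEAD4, a TEAD factor, was lower at 3, 6, 12 and 24 h (-0.73, -1.04, -1.35 and -0.90), each with an edgeR adjusted p of at most 5.33e-05. TEAD1 was lower from 6 h on (-0.90 at 6 h, SE 0.11, edgeR adjusted p 2.82e-05), and the AP-1 gene FOS was higher at 3 h (1.14, SE 0.21, edgeR adjusted p 0.000961). The co-activator genes YAP1 and WWTR1 (the latter codes for TAZ) are named here after their values were seen. YAP1 rose by 0.17 at 3 h, 0.56 at 6 h and 0.38 at 12 h and had 0.05 at 24 h (edgeR adjusted p 0.576). WWTR1 was lower at 3, 6, 12 and 24 h, with log2 changes of -0.19, -0.60, -0.80 and -0.56.

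Among 20 other YAP-TEAD targets, 19 were tested. At 3 h 7 were called lower and 2 higher, where 14.7% and 16.8% of all genes were. At 6 h the counts were 9 and 4 (20.4% and 22.9% of all genes), and at 12 h 9 and 5 (16.8% and 19.1%). At 24 h they were 8 and 4 (18.8% and 21.9%). The counts called higher at 6 h and 24 h lay near those over all genes. The list medians were -0.29, -0.59, -0.10 and -0.58 on the log2 scale, beside 0.00, -0.01, 0.01 and 0.01 over all genes. ANKRD1, a nuclear ankyrin repeat protein, was lower at 3, 6, 12 and 24 h, with log2 changes of -3.53, -4.60, -5.61 and -4.23 (SE 0.26, 0.28, 0.36 and 0.28). AMOTL2, an angiomotin that binds YAP, changed by -1.41 at 3 h (SE 0.06) and by -0.83 at 24 h (SE 0.07), and the kinase gene NUAK2 by -2.15 (SE 0.15) and -1.47 (SE 0.15). Without LatB 12 h replicate 2 the list median at 12 h was -0.79.

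The 16 listed MRTF-SRF targets code mostly for actin and actin-binding proteins. Of them, 15 were called lower at 3 h, 16 at 6 h, 14 at 12 h and 10 at 24 h, when 1 was called higher. Of all genes, 14.7%, 20.4%, 16.8% and 18.8% were called lower at these times, and 21.9% higher at 24 h. The list medians were -0.50, -0.89, -0.95 and -0.57 on the log2 scale, beside 0.00, -0.01, 0.01 and 0.01 over all genes. CNN1, a calponin, changed by -1.26 at 3 h (SE 0.33, edgeR adjusted p 0.0103) and by -3.42 at 12 h (SE 0.45, edgeR adjusted p 7.80e-05). TAGLN, an actin-bundling protein, fell by 3.55 on the log2 scale at 24 h (SE 0.39, edgeR adjusted p 1.96e-05).

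Targets of the TGF-beta and WNT pathways were listed as well. Of 8 TGF-beta-SMAD targets, 3 were called higher and 1 lower at 3 h, and 3 and 2 at 6 h. The counts were 2 and 3 at 12 h, and 1 and 2 at 24 h, few genes to set beside the shares of all genes. Those shares were 16.8% higher and 14.7% lower at 3 h, and 22.9% and 20.4% at 6 h. At 12 h they were 19.1% and 16.8%, and at 24 h 21.9% and 18.8%. SMAD7, the inhibitory SMAD, was lower at all 4 times, with log2 changes of -2.26, -1.82, -1.78 and -1.69 (SE 0.14, 0.14, 0.16 and 0.15), while at 3 h BHLHE40 was higher (2.21, SE 0.30, edgeR adjusted p 9.45e-05). Of 8 WNT-beta-catenin targets, 4 were called higher and 2 lower at 3 h, and 5 and 0 at 6 h. The counts were 4 and 0 at 12 h, and 6 and 0 at 24 h, where the list median was 0.92. These stand beside the same shares of all genes. LGR5, a receptor of R-spondins, was a low transcript that was higher at 24 h than in control 24 h, by 3.82 on the log2 scale (SE 0.34), with mean levels of 1.25 and 0.0915 TPM.

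**Figure D5:**
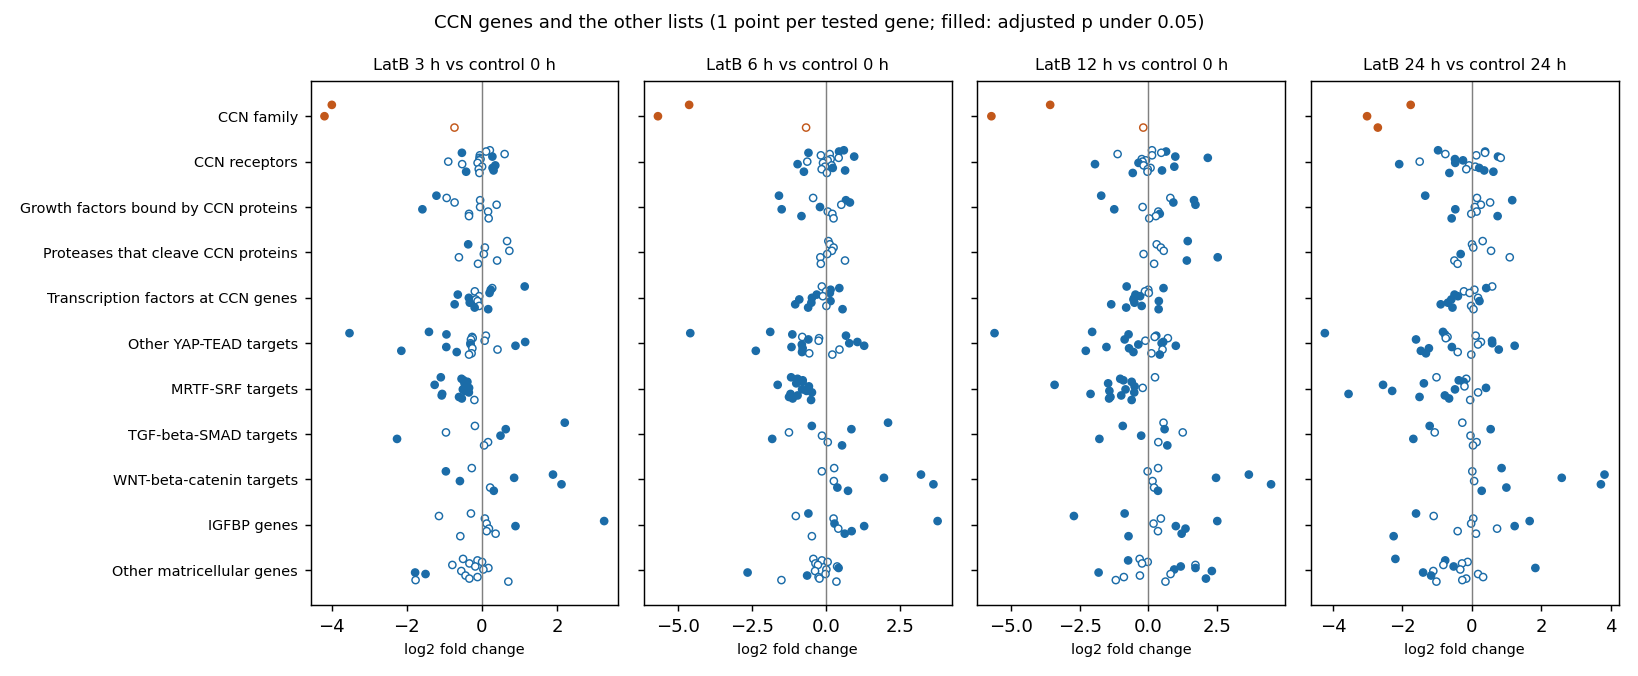
Log2 fold changes (x axis; its range differs between panels) of the tested genes of 11 lists in the 4 comparisons of LatB with a control, 1 point per gene, filled where the edgeR adjusted p was under 0.05. The CCN family is in orange, with CCN1 and CCN2 at -4.00 and -4.19 at 3 h, and the MRTF-SRF targets lie left of 0 at 3 h and 6 h.

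On the receiving side, 19 of 22 listed CCN receptors were tested. At 3 h 4 were called higher and 2 lower, where 16.8% and 14.7% of all genes were, and at 24 h 5 and 6, where 21.9% and 18.8% were, so the counts lay near those over all genes at 3 h. The count at 12 h was 5 higher and 3 lower, where 19.1% and 16.8% of all genes were. The list medians over the 4 times stayed between -0.08 and 0.06, but the 12 h median was -0.15 without LatB 12 h replicate 2. ITGA6, the integrin alpha 6 chain, was higher at 3, 6, 12 and 24 h, by 0.28, 0.96, 0.99 and 0.75 on the log2 scale (SE 0.04, 0.04, 0.05 and 0.05). ITGB6, the integrin beta 6 chain, was lower from 6 h on, with log2 changes of -0.96, -1.94 and -2.09 at 6, 12 and 24 h (SE 0.25, 0.31 and 0.28). ITGA8 was called at 12 h with 2.18 (SE 0.61, edgeR adjusted p 0.0138), but had 0.42 (adjusted p 0.641) without LatB 12 h replicate 2.

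Of 12 listed growth factors that CCN proteins bind, 11 were tested. At 3 h 0 were called higher and 2 lower (16.8% and 14.7% of all genes). At 6 h 2 were called higher and 4 lower (22.9% and 20.4% of all genes), and at 24 h 2 and 3 (21.9% and 18.8%). The counts at 24 h, and the count called lower at 3 h, lay near those over all genes. At 12 h 4 were called higher and 2 lower (19.1% and 16.8% of all genes) with a median of 0.37. Without LatB 12 h replicate 2 this median was -0.02. BMP2, at 77.5 TPM in control 0 h, was lower at all 4 times, with log2 changes of -1.21, -1.59, -1.72 and -1.34 (SE 0.19, 0.19, 0.22 and 0.21). BMP7, at 13.5 TPM, had -0.05 at 3 h (edgeR adjusted p 0.853) and was higher by 0.68, 1.67 and 1.16 at 6, 12 and 24 h (SE 0.15, 0.16 and 0.17). Of 13 proteases that cleave CCN proteins 8 were tested. At 12 h 3 were called higher, beside 19.1% of all genes, namely MMP2 (2.54), ADAM28 (1.44) and MMP9 (1.41). None of these 3 was called without LatB 12 h replicate 2.

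Genes related by domain or by kind did not share one direction. Of 10 genes with an IGFBP-type domain, 2 were called higher at 3 h (16.8% of all genes). At 6 h 5 were called higher and 1 lower, where 22.9% and 20.4% of all genes were. At 12 h 4 were higher and 3 lower (19.1% and 16.8% of all genes), and at 24 h 2 in each direction (21.9% and 18.8%). The counts at 3 h and 24 h thus lay near those over all genes. IGFBP1, an insulin-like growth factor carrier, rose by 3.26 at 3 h (SE 0.41) and 3.79 at 6 h (SE 0.41), and IGFBP7 fell by 2.25 at 24 h (SE 0.26) on the log2 scale. Of 19 other matricellular genes 16 were tested, with 2 lower at 3 h (14.7% of all genes), and 1 higher and 5 lower at 24 h (21.9% and 18.8% of all genes). At 12 h 5 were called higher and 2 lower (19.1% and 16.8% of all genes) with a median of 0.31. Without LatB 12 h replicate 2 this median was -0.23. THBS1, thrombospondin, was lower at all 4 times, as CCN1 and CCN2 were, with log2 changes of -1.78, -2.66, -1.81 and -1.41 (SE 0.34, 0.36, 0.40 and 0.37).

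Patterns over the 16 libraries were compared by Pearson's r of log2 CPM with genes of a mean log2 CPM of at least 3, as a description. The libraries share their groups and depth scaling, so r reflects the common LatB and control groups. CCN1 and CCN2 had r of 0.96 with each other, and CCN3 had 0.38 with CCN1 and 0.46 with CCN2. The 5 most similar genes to CCN2 among 10520 searched were NUAK2 (0.98), ANKRD33B (0.98), AMOTL2 (0.98), ENC1 (0.98) and PIM1 (0.97). Those of CCN1 were PKP2 (0.97), NUAK2 (0.97), CCN2 (0.96), FAM110C (0.96) and BIVM (0.96). For CCN3 they were GPC1 (0.95), ITGA3 (0.94), SH3BP5 (0.94), EFEMP1 (0.93) and PRSS35 (0.93), and none of these 5 was among those of CCN1 or CCN2.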

How the data were processed

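The deposited transcript tables held estimated counts and TPM values that the authors had made with Salmon 1.3.0 on hg38, per the labels. Strand use is not given in the sources used here, and the study's methods describe another route (STAR gene counts), so upstream settings are uncertain. The authors also deposited a table of their own DESeq2 results, whose fold changes and 16 per-sample columns were not used.

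Of 177456 transcripts, 165533 matched GENCODE release 44 by identifier, and unmatched ones held 2.92% to 3.17% of a library's reads. Estimated counts were summed per gene and rounded, and 16705 genes passed filterByExpr (minimum count 10). One edgeR 4.0.16 quasi-likelihood fit (R 4.3.3, TMM) held all 6 groups. Tests were two-sided, adjusted by Benjamini-Hochberg over all genes, and called at an adjusted p under 0.05. SE is the log2 fold change over the square root of F. LatB 3, 6 and 12 h were compared with control 0 h, since no vehicle library of those times was used here, and LatB 24 h with control 24 h. On simulated counts for 3 h, 66.7% of 2-fold and 87.0% of 4-fold changes were recovered, and 4.97% of the calls made were false. There 199 of the 16481 genes tested were changed, a far smaller share than the 31.6% called at 3 h in the data. DESeq2 1.42.0 and limma 3.58.1 served as alternatives. Intervals and floors cover counting error only.

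The members, lists and tests were chosen with earlier results of these data known. The 3 tested CCN genes were named in every comparison. From each other list, the 3 genes with the largest change among those called in a LatB comparison were eligible to be named, and the 5 most similar genes per member were listed. Replicate numbers gave correlations of deviations between -0.241 and 0.104 over all genes, and no pairing was used. Such values cannot show whether libraries with the same number shared a culture.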

Additional observations from a re-analysis of the deposited data

Results flagged for a closer look

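The change of CCN1 under LatB against its control differed between times by a test of the difference itself. The control was control 0 h for LatB 3 h and DMSO of the same age for LatB 24 h. No vehicle library of 3 h was used, so LatB and handling or vehicle cannot be told apart in the 3 h effect. The effect at 24 h minus that at 3 h was 2.24 on the log2 scale (SE 0.48, edgeR adjusted p 0.00386), from a log2 fold change of -4.00 at 3 h to -1.76 at 24 h. It was called under all 22 alternatives, with values from 1.81 to 2.60. The 24 h libraries held 27.8, 7.76 and 18.8 TPM of CCN1, with replicate 2 the lowest. Of the 10 stromal markers 6 were also lowest in replicate 2, PDGFRA and PDGFRB by very little, and 4 were not. The summed list was at 113, 63.7 and 63.8 TPM. The part of the stromal cells in this difference was not tested.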

How the results depend on the processing

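The values of CCN1 and CCN2 against a control kept direction and call in 140 of 140 recomputations, and CCN3 at 24 h was called under all 17. The weak points were the 12 h libraries, the low reads of CCN3 and the absence of vehicle libraries at 3 to 12 h. The cause of the changes below was not tested unless the setting itself has fewer genes or libraries.

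CCN2 between the controls, -0.00 in the report, was 0.0042 with RLE size factors, 0.017 without scaling, 0.016 without a filter, 0.018 with an offset for transcript length, 0.00039 with the replicate block, 0.0036 by DESeq2, 0.0024 with only the compared groups, 0.025 with limma-trend on log2(TPM + 1), with or without a filter, and 0.026 on log2(TPM + 0.1), and ran from -0.083 to 0.076 with 1 library left out. CCN2 from 6 h to 12 h turned to 0.082 without scaling, 0.019 with limma-trend on log2(TPM + 1), with or without a filter, and 0.0085 on log2(TPM + 0.1), and ran from -0.48 to 0.26 with 1 library left out. With 1 library left out CCN3 ran from -0.33 to 0.31 from 3 h to 6 h, from -2.38 to 0.62 for 12 h against control 0 h, from -1.70 to 1.29 from 6 h to 12 h, and from -2.78 to 0.22 from 12 h to 24 h. None of these values was called in the report.

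The number of genes called between the controls, 42 in the report, was 8 with RLE size factors and with the length offset, 7 without scaling and on log2(TPM + 0.1), 6 with transcripts of the same version, 2 on log2(TPM + 1), 12 on it without a filter, 91 without a filter, 248 by DESeq2, 218 with only the compared groups, and 2 to 9 with 1 library left out. From 3 h to 6 h (3710) it was 2029 with the length offset, 1751 on log2(TPM + 1), 1788 on log2(TPM + 0.1) and 1359 without a filter. From 6 h to 12 h (4837) it was 3025, 2786, 2782 and 2310 in that order, 1574 with only the compared groups, and 2861 to 6219 with 1 library left out. From 12 h to 24 h (1952) it was 974, 751, 694 and 564 in that order, 1209 with transcripts of the same version, 0 with only the compared groups, and 852 to 3713 with 1 library left out. For the difference of effects (4665) it was 2977, 2941, 2940 and 2497 in that order, and 3012 to 4535 with 1 library left out. At 12 h (5988) it was 3981 on log2(TPM + 0.1), 3576 on log2(TPM + 1) without a filter and 2828 with only the compared groups. That unfiltered fit gave 3143 at 3 h (5271), 4768 at 6 h (7230) and 4269 at 24 h (6809), and leaving out 1 library gave 4034 to 6424 at 24 h.

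Of the 3 tested CCN genes, the number called from 6 h to 12 h was 1 by DESeq2 (0 in the report). From 3 h to 6 h (1) it was 0 on log2(TPM + 1) without a filter, 2 with only the compared groups, and 0 to 1 with 1 library left out. From 12 h to 24 h (2) it was 1 and 0 in these fits. For the difference of effects (1) it was 2 with only the compared groups, and 1 to 2 with 1 library left out.

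The replicate number as a block changed no call of a CCN gene. It gave 6 genes between the controls and 1093 from 12 h to 24 h, and CCN1 at 3 h had a log2 fold change of -4.00. Whether libraries pair by number was not settled. Of the list counts, recomputed with RLE size factors, without scaling and without LatB 12 h replicate 2 (chosen after seeing the data), those at 12 h depended most on that library. Without scaling the median gene moved to -0.10 at 6 h.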
